A study of Mus musculus with 4 samples.

Results

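The beta-defensin genes are described here, chosen as every protein-coding gene of the mm10 RefSeq annotation whose symbol begins with Defb. There were 42 of them among 21631 protein-coding genes on chromosomes 1 to 19 and X. The rule uses no measured value, though earlier results of these data were known when it was chosen. The data are CUT&RUN peak lists, in which a protein A-MNase fusion cuts DNA around an antibody bound to chromatin of permeabilised cells, from 2 libraries of mTEChi and 2 of mTEClo sorted from mouse thymus. Both are epithelial cells of the thymic medulla, where maturing T cells meet self-antigens; mTEChi usually denotes the more mature cells with much surface MHC class II, the Aire-expressing ones included, and mTEClo the less mature. Both groups were Trp53 wild type (Trp53 encodes p53, a transcription factor), came from mice aged 4 to 5 weeks and used 500000 cells per condition. The labels do not say whether the replicates came from separate mice. Titles give anti-P53 as the antibody, whereas the protocol gives anti-BAF155, which binds a subunit of a chromatin remodelling complex, so the labels do not settle which protein the peaks mark.

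Beta-defensins are short, positively charged secreted peptides that are folded by a conserved set of disulfide-bonded cysteines and kill microbes by disturbing their membranes. Some also attract immune cells through the chemokine receptor CCR6. The genes arose by duplication and lie in tandem clusters. Some members, such as Defb4 and Defb14, are induced in skin and airway epithelium, while many others are best known from the epididymis, where they coat sperm. Genes of this kind, active in few tissues, are among those that medullary thymic epithelium can express.

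The lists held 73510 and 85308 peaks in mTEChi replicates 1 and 2, against 69359 to 89809 in the mTEClo libraries. Each peak is an interval of 301 bp around a summit, with a score that ranks it within its own list. Peak lists carry no read counts, so the sequencing depth is unknown. Control-antibody libraries were not analysed here, and the counts therefore have no background measured in that way. Of 7 thymic epithelial marker genes, 6 carried a peak in all 4 libraries (Foxn1, Epcam, Krt5, Krt8, Krt14 and Aire), and Psmb11, a marker of the cortex, had 0 and 1 in mTEChi and 0 and 3 in mTEClo. Of 7 thymocyte markers 3 did, and of 5 B cell and myeloid markers 1 did, where 51.9% of all protein-coding genes did. In both mTEClo libraries 6 of the thymocyte markers and 6 of the epithelial ones carried a peak, against 4 and 6 in both mTEChi libraries. Of all protein-coding genes, 63.1% did in both mTEClo libraries and 61.2% in both mTEChi libraries. The B cell and myeloid markers gave 3 in both mTEClo libraries and 2 in both mTEChi libraries. Cd8a had a peak in both mTEClo libraries and in neither mTEChi library, as did 2.14% of all protein-coding genes. A peak is not a measure of expression, and the part of other cells in the lists was not tested.

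Promoter sequences are shown first for the 3 members that had a summit within the window from 250 bases before to 50 bases after the annotated gene start, with the 2 relatives closest to one of them. The 250 bases before the start are given 5′ to 3′ from the RefSeq promoter table (GRCm38.p6). Defb6 (chr8:19225228-19225477, + strand) had a summit there in each mTEChi library but in no mTEClo library, and capitals mark the 18 bases between the 2 summits, ends included. Defb3 (chr8:19293111-19293360, + strand) and Defb8 (chr8:19447607-19447856, - strand) held no summit in this window, and their capitals mark the bases that align to the capitals of Defb6.
Defb6: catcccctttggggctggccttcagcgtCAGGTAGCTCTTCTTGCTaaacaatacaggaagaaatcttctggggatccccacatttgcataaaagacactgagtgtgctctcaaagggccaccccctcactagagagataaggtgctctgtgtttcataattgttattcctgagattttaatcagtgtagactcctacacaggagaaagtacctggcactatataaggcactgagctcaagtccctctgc
Defb3: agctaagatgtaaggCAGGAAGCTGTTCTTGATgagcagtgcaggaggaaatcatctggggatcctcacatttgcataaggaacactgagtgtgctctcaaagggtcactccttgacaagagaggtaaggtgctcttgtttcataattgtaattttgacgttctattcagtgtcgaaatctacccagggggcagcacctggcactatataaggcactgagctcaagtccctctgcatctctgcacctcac
Defb8: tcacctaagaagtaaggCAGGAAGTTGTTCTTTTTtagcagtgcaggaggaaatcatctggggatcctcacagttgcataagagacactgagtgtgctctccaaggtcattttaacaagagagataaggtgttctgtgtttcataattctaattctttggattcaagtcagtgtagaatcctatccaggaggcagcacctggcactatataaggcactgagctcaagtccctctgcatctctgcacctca
Defb20 (chr2:152476813-152477062, + strand) had its summit in mTEClo replicate 2 and Defb42 (chr14:63046741-63046990, + strand) in mTEChi replicate 1. Capitals mark the summit with 10 bases on each side.
Defb20: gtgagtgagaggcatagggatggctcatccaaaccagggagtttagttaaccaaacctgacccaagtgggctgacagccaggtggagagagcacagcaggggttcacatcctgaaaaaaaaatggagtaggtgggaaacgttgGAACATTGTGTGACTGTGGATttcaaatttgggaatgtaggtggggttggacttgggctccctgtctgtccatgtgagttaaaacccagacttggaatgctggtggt
Defb42: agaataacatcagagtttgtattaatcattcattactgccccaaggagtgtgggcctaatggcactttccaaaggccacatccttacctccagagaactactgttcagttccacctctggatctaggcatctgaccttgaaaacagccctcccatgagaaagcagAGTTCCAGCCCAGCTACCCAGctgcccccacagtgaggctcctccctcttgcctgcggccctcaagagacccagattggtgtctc

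Most beta-defensin genes had a peak somewhere, but few had one in every library. For a library to call a gene, at least 1 summit had to lie inside the gene or no more than 5 kb away. In mTEChi replicates 1 and 2, 16 and 16 members were called, and in mTEClo replicates 1 and 2, 18 and 14 members were called. Those counts are 38.1% and 38.1% of the members in mTEChi and 42.9% and 33.3% in mTEClo. Of all protein-coding genes, 69.3% and 73% were called in the mTEChi libraries and 75.5% and 68.8% in the mTEClo libraries. At least 1 library called 36 members (85.7%), close to the 87.2% of all genes, while all 4 libraries called 1 member (2.38%), against 51.9% of all genes. Exactly 1 library called 16 members (38.1%, against 8.34% of all genes), exactly 2 called 13 (10.3% of all genes) and exactly 3 called 6 (16.7% of all genes). At least 3 libraries called 7 members, a share of 16.7%, against 68.6% of all genes.

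**Figure D1:**
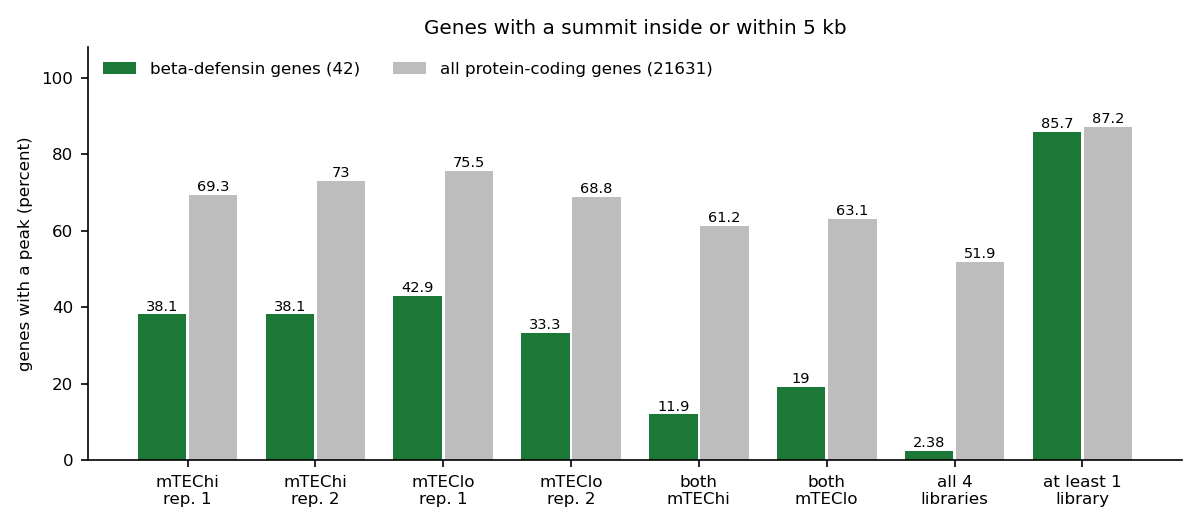
Percent of genes with a summit inside or within 5 kb (vertical axis) for the 42 beta-defensin genes (green) and all 21631 protein-coding genes (grey), per library and for combinations of libraries. The green bars stand at 33.3% to 42.9% in single libraries and at 2.38% for all 4 libraries, while the bars for at least 1 library are 85.7% and 87.2%.

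The windows of the members are short, and the part of window length in these shares was not tested. The median length of a member was 3215 bp, against 17329 bp over all protein-coding genes, and the members' windows covered 0.589 Mb once overlaps were joined. Counted per length, the members' windows held 28.9 and 44.2 peaks per Mb in mTEChi replicates 1 and 2 and 40.8 and 28.9 in mTEClo replicates 1 and 2. The windows of all protein-coding genes held 37.1 and 43.1 peaks per Mb in mTEChi and 46.4 and 35.4 in mTEClo. The members thus lay below all genes in 3 of the 4 libraries and slightly above in mTEChi replicate 2. A summit inside the gene interval itself was found for 3 and 6 members in mTEChi and for 4 and 5 in mTEClo, while 50.8% and 56.7% of all genes in mTEChi and 59.3% and 52.3% in mTEClo had one. The median distance from a member to its nearest summit was 8229.5 and 6451.5 bp in mTEChi and 8622.5 and 13262.5 bp in mTEClo.

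The number of called members did not separate the states. The mean was 16 ± 0 members in mTEChi and 16 ± 2.83 in mTEClo (SD, n = 2 each; two-sided exact permutation test, p = 1). Distinct peaks in the members' windows numbered 17 and 26 in mTEChi replicates 1 and 2 and 24 and 17 in mTEClo replicates 1 and 2. The means were 21.5 ± 6.36 in mTEChi and 20.5 ± 4.95 in mTEClo, and the ranges overlapped (SD, n = 2 each; exact permutation test, p = 1). As a share of each list these peaks were 0.0231% (95% Wilson interval 0.0144 to 0.0370) and 0.0305% (0.0208 to 0.0447) in mTEChi and 0.0267% (0.0180 to 0.0398) and 0.0245% (0.0153 to 0.0393) in mTEClo. The shares averaged 0.0268% ± 0.00520 in mTEChi and 0.0256% ± 0.00156 in mTEClo (SD, n = 2 each; exact permutation test, p = 1). Adjusted over these 3 tests every p stayed at 1, and with 2 libraries against 2 no p below 0.333 is possible. The intervals cover counting error only.

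The members fall into 5 clusters, set apart by at least 1 Mb or by chromosome, and those on chromosome 8 are named lower and upper by coordinate. On chromosome 1 (18236402 to 18265138) lie Defb18 and Defb41; Defb18 had a peak in mTEChi replicate 1 and Defb41, known from the epididymis, had none in any library. On chromosome 2 (152459055 to 152623053) lie 11 members, of which 5 and 3 were called in mTEChi and 5 and 4 in mTEClo. The lower cluster of chromosome 8 (18974914 to 19497775) holds 14, among them Defb14, Defb4, Defb6 and Defb3, and 4 and 7 were called in mTEChi and 5 and 5 in mTEClo. The upper cluster (20892667 to 21948622) holds 10, with Defb1 among them, and 4 and 4 were called in mTEChi and 6 and 1 in mTEClo. The 5 members on chromosome 14 (62977524 to 63048606) were called in 2 and 2 cases in mTEChi and in 2 and 4 in mTEClo. Besides Defb41, the members without a peak in any library were Defb29 on chromosome 2, Defb40, Defb12 and Defb7 in the lower and Defb11 in the upper cluster of chromosome 8. These 6 are 14.3% of the members, and 12.8% of all protein-coding genes had no peak.

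**Figure D2:**
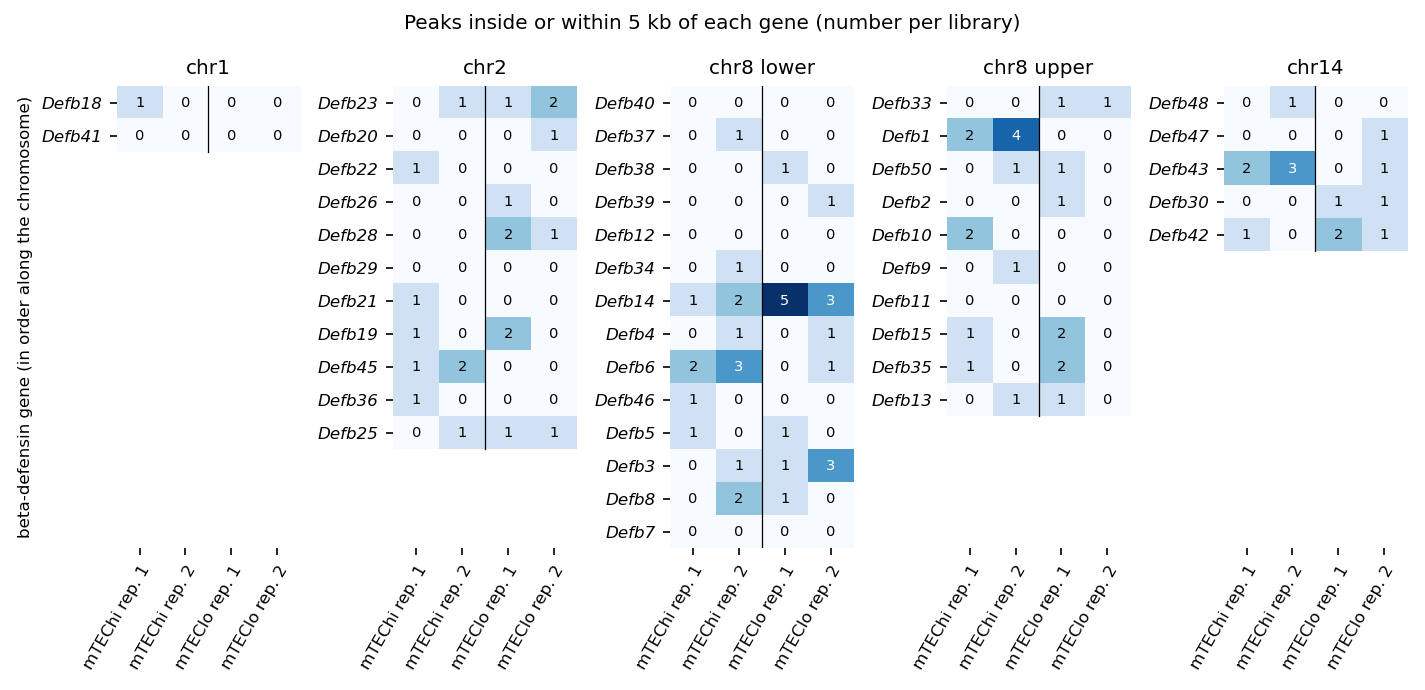
Number of peaks with a summit inside or within 5 kb of each of the 42 beta-defensin genes (rows, in order along each cluster) in mTEChi and mTEClo replicates 1 and 2 (columns). Darker cells hold more peaks; the highest counts are 5 at Defb14 in mTEClo replicate 1 and 4 at Defb1 in mTEChi replicate 2, and 6 rows hold 0 throughout.

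Over the whole span of a cluster, the space between members included, peak density was lowest in the upper cluster of chromosome 8 among the clusters of 5 or more members. Across the cluster on chromosome 2 there were 28.7 and 46.0 peaks per Mb in mTEChi and 40.2 and 34.5 in mTEClo. The mean of the 1 Mb on each side was 54.5 and 72.5 peaks per Mb in mTEChi and 81 and 49 in mTEClo. Each side by itself held more than the cluster except the lower side in mTEClo replicate 2, with 32. The lower cluster of chromosome 8 held 22.5 and 28.1 peaks per Mb in mTEChi and 31.9 and 24.4 in mTEClo. Its sides were unlike: the 1 Mb below it held 36 and 41 peaks in mTEChi and 49 and 24 in mTEClo, and the 1 Mb above it 7 and 8 in mTEChi and 2 and 1 in mTEClo. The upper cluster, whose span includes the alpha-defensin genes, held 10.3 and 7.51 in mTEChi and 10.3 and 6.57 in mTEClo, where the whole genome had 28.7 and 33.3 in mTEChi and 35.1 and 27.1 in mTEClo. In the windows of its members alone the density was 35.6 and 49.9 in mTEChi and 42.8 and 7.13 in mTEClo, above the genome in 3 libraries. The 1 Mb below the upper cluster held 1 and 0 peaks in mTEChi and 0 and 1 in mTEClo, and the 1 Mb above it 44 and 55 in mTEChi and 54 and 45 in mTEClo. The chromosome 14 cluster held 37.0 and 49.3 in mTEChi and 24.7 and 49.3 in mTEClo, below each side in 3 libraries and above each in mTEClo replicate 2 (means of the sides 43.5 and 56.5 in mTEChi, 59 and 38.5 in mTEClo). Near-identical copies are common among defensin genes, and the handling of reads that map to several places was not stated. The part of mapping in these densities was not tested.

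**Figure D3:**
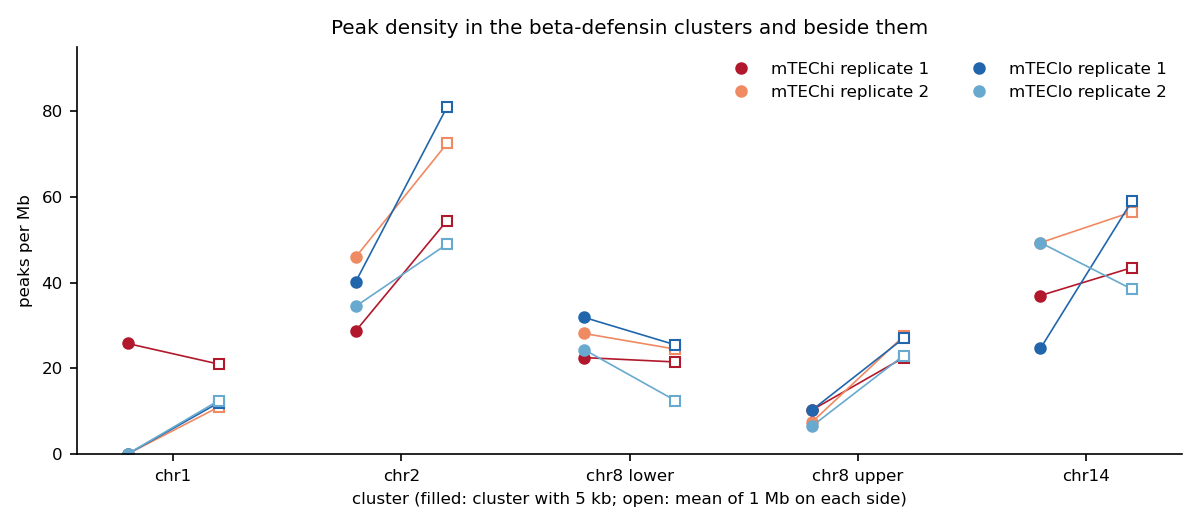
Peaks per Mb (vertical axis) in each beta-defensin cluster with 5 kb on each side (filled circles) and as the mean of the 1 Mb on each side (open squares), with 1 line per library. In the upper cluster of chromosome 8 all libraries lie between 6.57 and 10.3, and in the chromosome 2 cluster all lie below the mean of their sides.

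In both mTEChi libraries 5 members were called (11.9%, against 61.2% of all genes): Defb45, Defb14, Defb6, Defb1 and Defb43. In both mTEClo libraries 8 were called (19%, against 63.1% of all genes): Defb23, Defb28, Defb25, Defb14, Defb3, Defb33, Defb30 and Defb42. With replicate 1 or 2 of a state left out, the single remaining list sufficed and the counts became 16 and 16 for mTEChi and 14 and 18 for mTEClo. The shares of all genes then became 73.0% and 69.3% for mTEChi and 68.8% and 75.5% for mTEClo. Defb45 and Defb1 were called by each mTEChi library and by no mTEClo library (4.76%, against 1.67% of all genes). Defb28, Defb33 and Defb30 were called the other way round (7.14%, against 2.14% of all genes). These are 2 and 3 genes, and the difference between the states was not tested for any single gene.

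The same gene was often called at different places in different libraries. Merging peaks that share at least 1 bp gave 73 regions with a summit in the members' windows, of which 65 (89.0%) came from 1 library, 5 (6.85%) from 2, 3 (4.11%) from 3 and 0 from all 4. Over all 259773 regions the shares were 85.4% for 1 library, 9.67% for 2, 2.98% for 3 and 1.99% for 4. Regions of at least 2 libraries were 11% of the members' regions, against 14.6% of all. Of the members' peaks, 5 of 17 (29.4%) and 5 of 26 (19.2%) in mTEChi and 5 of 24 (20.8%) and 4 of 17 (23.5%) in mTEClo overlapped a peak of another library. For all peaks of a list these shares were 31.9% and 25.8% in mTEChi and 31.6% and 32.4% in mTEClo, and each lay inside the 95% Wilson interval of the members' share. The mTEChi libraries shared 4 of the regions with each other, the mTEClo libraries 3, and pairs across the states 1 or 2. These counts are small, and sharing by pairs was not counted over all regions. They therefore do not show whether sharing within a state is particular to these genes.

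Defb14, the mouse counterpart of human DEFB103 and an inducible peptide of skin and mucosa, was the 1 member called in all 4 libraries. It had 1 and 2 peaks in mTEChi replicates 1 and 2 and 5 and 3 in mTEClo replicates 1 and 2. Its annotated interval (chromosome 8, 19160244 to 19195309) is also the longest of the family, at 35066 bp. Both regions that 3 libraries shared there lay inside it, near its lower end. The first (19163714 to 19164077) had summits within 63 bp of each other in mTEChi replicate 2 (score 4.70) and in mTEClo replicates 1 and 2 (6.08 and 3.03). The second (19167046 to 19167599) had summits in mTEChi replicates 1 and 2 (2.77 and 4.70) and mTEClo replicate 1 (4.55), spread over 253 bp. Spag11a, a sperm-associated gene of the same family, ends at 19159920, so the first region also lay within 5 kb of it.

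Defb6, a beta-defensin gene of the lower chromosome 8 cluster, had 1 peak of each mTEChi library at the promoter printed above. In all it had 2 and 3 peaks in mTEChi replicates 1 and 2 and 0 and 1 in mTEClo replicates 1 and 2. The mTEChi summits at 19225256 (score 9.08) and 19225273 (4.34) lay 17 bp apart, 222 and 205 bases before the annotated start at 19225478. The other mTEChi peaks lay 147 bases inside the gene in replicate 1 (2.77) and, in replicate 2, 3144 and 4358 bp beyond its upper end (2.45 and 5.43), so the promoter peak was not the highest there. The mTEClo replicate 2 peak lay inside the gene at 19227528 (3.94), and the nearest mTEClo replicate 1 summit was 25403 bp away. The score of 9.08 was the highest at any member in mTEChi replicate 1, with 6.27% of that list at or above it. The score of 4.34 in replicate 2 had 30.6% of its list at or above it.

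The promoter of Defb6 has close relatives among its neighbours that held no summit. Of 29 members with an entry in the promoter table, 5 shared at least 60% of aligned columns with Defb6 over the 250 bases before the start. Defb3 shared 74.0% and Defb8 73.5%, followed by Defb5 (65.6%), Defb7 (65.6%) and Defb46 (60.8%), and the remaining 24 sequences shared 47.6% to 52.7%. Over the 18 bases between the Defb6 summits, Defb3 was identical at 15 and Defb8 at 13. Summits in these 300-base windows were found for 2 and 1 members in mTEChi replicates 1 and 2 and for 0 and 1 in mTEClo replicates 1 and 2. Of 17274 genes in the promoter table, 24.8% and 21.4% in mTEChi and 28.5% and 20.5% in mTEClo had one. The Defb20 summit in mTEClo replicate 2 (152476966, score 3.48) lay 97 bases before the start. The Defb42 summit in mTEChi replicate 1 (63046916, 3.60) lay 75 bases before it, and mTEClo replicate 1 had an overlapping peak with its summit 99 bases inside the gene (63047090, 3.62).

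A search of both strands found no p53 half-site consensus in any of the 30 promoter windows of the members, while 7.37% of 21045 protein-coding promoter windows held one. The full p53 site, a pair of half-sites up to 13 bases apart, was in 0 member windows and in 0.0475% of all windows. The kappaB consensus, the site of NF-kB factors that induce some beta-defensins, was in the windows of Defb6 and Defb28 (6.67% of the members' windows, against 4.86% of all). The 8 letters ATTTGCAT, the octamer bound by POU factors, were searched after the sequences had been seen. They stood in the windows of Defb6, Defb3, Defb5, Defb46, Defb26 and Defb9 (20% of the members' windows, against 1.68% of all), of which the first 4 are the related promoters named above. TATAAA was in 16.7% of the members' windows and 12.7% of all. Most summits lay outside these windows, and the sequence under them was not used here.

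Defb1, the constitutive beta-defensin of kidney and urogenital epithelium, had 2 and 4 peaks in mTEChi replicates 1 and 2 and 0 and 0 in mTEClo replicates 1 and 2. The mTEChi libraries shared a region (chromosome 8, 21775329 to 21775714) with summits 1076 and 991 bp below the gene's lower coordinate of 21776555. Its scores were 3.19 in replicate 1, with 74.1% of the list at or above it, and 4.88 in replicate 2, with 19.5% at or above it. A further pair of summits stood 220 bp below that coordinate in replicate 1 and 191 bp inside the gene in replicate 2. The nearest mTEClo summits lay 9738 and 7574 bp from the gene.

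Defb3, an inducible airway and mucosal beta-defensin, was called in both mTEClo libraries and in mTEChi replicate 2. It had 0 and 1 peaks in mTEChi replicates 1 and 2 and 1 and 3 in mTEClo replicates 1 and 2. Both mTEClo libraries had a summit just beyond the upper end of the gene, at 19295620 (score 6.21) and 19295616 (3.48), 4 bp apart. The mTEChi replicate 2 peak lay 3748 bp above the gene (3.83). Defb4, related to human DEFB4 and inducible in airway epithelium, had 0 and 1 peaks in mTEChi and 0 and 1 in mTEClo. Those peaks stood 2676 bp above the gene (3.34) and 793 bp below it (5.46), and the second also lay in the window of Defb14.

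**Figure D4:**
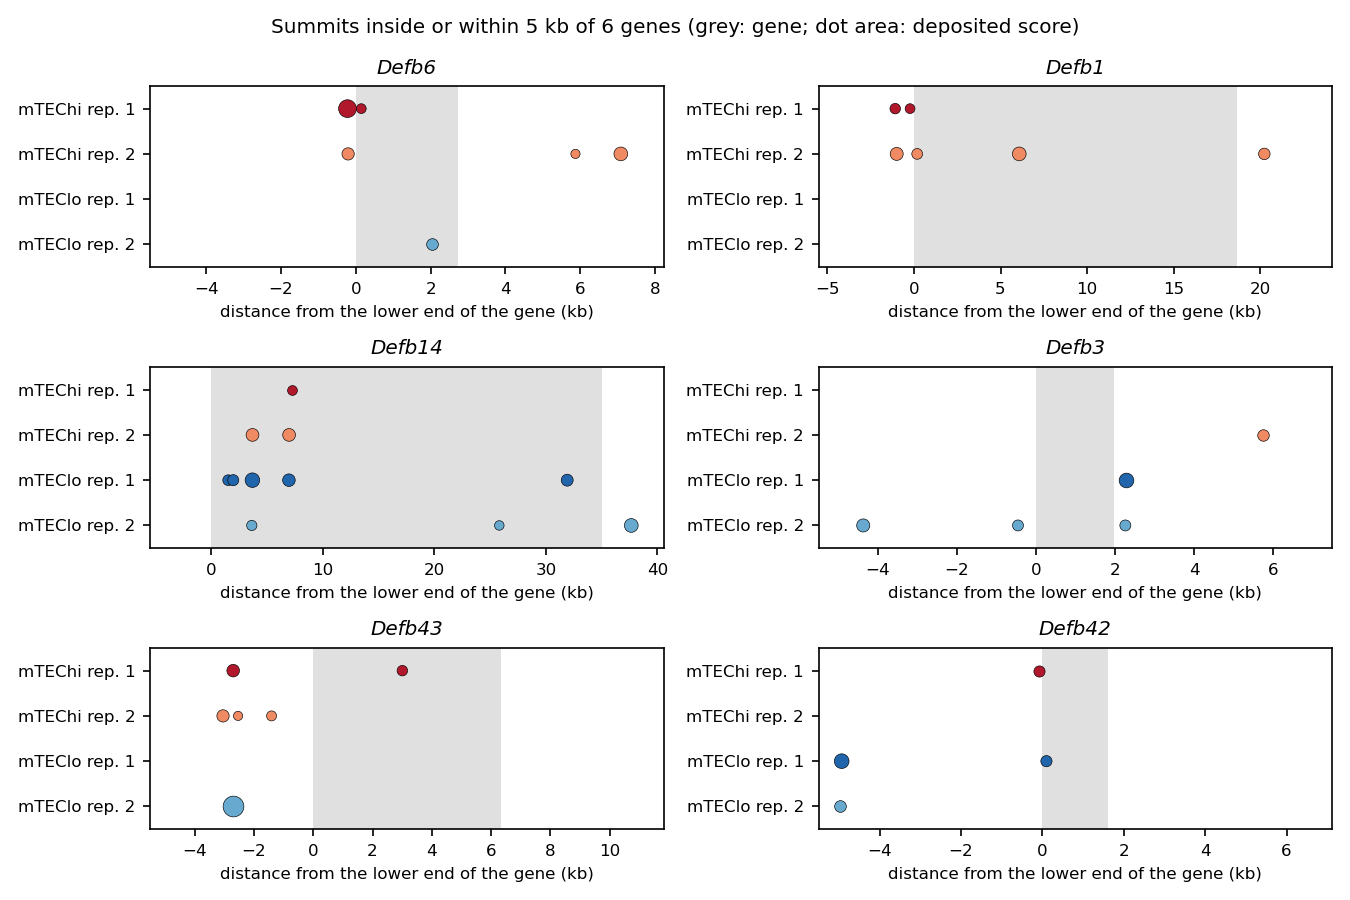
Summits inside or within 5 kb of 6 beta-defensin genes, by distance in kb from the gene's lower coordinate (horizontal axis), with a row per library from mTEChi replicate 1 down to mTEClo replicate 2; the gene is grey and dot area follows the deposited score. At Defb6 and Defb1 both mTEChi libraries have summits next to the lower end, at Defb3 both mTEClo libraries have one next to the upper end, and at Defb43 summits of 3 libraries, 2534 to 2715 bp below the gene, lie close together.

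On chromosome 14, Defb43 carried the strongest peak of the family. It had 2 and 3 peaks in mTEChi replicates 1 and 2 and 0 and 1 in mTEClo replicates 1 and 2. The region shared by 3 libraries (63008906 to 63009387) lay upstream of the gene on its + strand. Its mTEClo replicate 2 summit, 2715 bases before the start, had a score of 12.4, with 0.947% of that list at or above it. The mTEChi summits there stood 2699 and 2534 bases before the start, with scores of 4.56 and 2.45. In mTEClo replicate 1 the nearest summit was 23971 bp away, so the mTEClo libraries differed from each other here. This was the only member peak in the top 5% of any list.

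Defb30 and Defb42 shared a region between them (63041856 to 63042209) with peaks of both mTEClo libraries, scores of 6.21 and 3.94, and no mTEChi peak. Defb30 was called through this region alone, while Defb42 also had the mTEClo replicate 1 summit 99 bases inside the gene (63047090). The region stood 4213 and 4160 bp from Defb30 and 4932 and 4985 bp from Defb42, just inside the 5 kb limit. Defb33 was likewise called by mTEClo peaks close to that limit, 4981 bp below the gene in replicate 1 and 4049 bp above it in replicate 2. Just outside it, the nearest mTEChi replicate 1 summit stood 5084 bp from Defb25 and 5127 bp from Defb23, members that the other libraries called. When any base of a peak sufficed, 3 members were called in all 4 libraries instead of 1, against 52.2% of all genes under that rule.

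Defb23, Defb25, Defb45 and Defb28 on chromosome 2 were called in at least 2 libraries without a shared position. Defb23 had 0 and 1 peaks in mTEChi and 1 and 2 in mTEClo, and Defb25 had 0 and 1 in mTEChi and 1 and 1 in mTEClo. Defb45 had 1 and 2 peaks in mTEChi and 0 and 0 in mTEClo, with the closest pair of summits 4193 and 4614 bp below the gene. Defb28 had 0 and 0 peaks in mTEChi and 2 and 1 in mTEClo, 1 of them 120 bases inside the gene from its start. None of these peaks overlapped a peak of another library. Scores at these 4 genes ran from 2.23 to 5.10.

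In rank, the median member peak stood below that of all peaks in mTEChi replicate 1 and mTEClo replicate 1 and level with it in mTEClo replicate 2. In mTEChi replicate 2 it stood above, but only as the midpoint between scores of 3.34, the list's median, and 3.83. The median scores in mTEClo replicate 1 were close, 4.10 for member peaks and 4.12 for all. The median member peak had 25.9% and 43.9% of its list below it in mTEChi replicates 1 and 2, where the median of all peaks had 41.8% and 34.2%. In mTEClo replicates 1 and 2 the median member peak had 39.3% and 44.9% below it, where the median of all peaks had 50% and 44.9%. Scores above the list's median were held by 23.5% and 50% of member peaks in mTEChi, against 45.5% and 49.7% of all peaks. In mTEClo the shares were 41.7% and 47.1% of member peaks, against 50% and 42.6% of all. Scores hold many ties, so the median peak need not have exactly the middle of its list below it. Among the 10000 highest peaks of each list, the members' windows held on average 1.5 peaks in mTEChi and 1 in mTEClo. These are 0.015% and 0.01% of those peaks, against 0.0268% and 0.0256% of the whole lists, and rest on very few peaks.

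Other genes of the pathway and related families are given as counts, without a test, beside the shares of all genes (61.2% in both mTEChi libraries, 63.1% in both mTEClo libraries and 51.9% in all 4). The alpha-defensins, the Paneth cell peptides that lie inside the upper chromosome 8 cluster, were called in 2 and 0 of 29 cases in mTEChi and 1 and 1 in mTEClo, and 25 had no peak in any library. Single libraries called 68.8% to 75.5% of all genes, and 12.8% of all genes had no peak. Gene length was not taken into account in these counts. Of 6 receptors and relatives, 4 were called in both mTEChi libraries and 4 in both mTEClo libraries. Ccr6, the beta-defensin chemokine receptor, had 1 and 1 peaks in mTEChi and 1 and 1 in mTEClo, and Tlr4 was also called in all 4. Ccr2 was called in both mTEChi libraries alone and Mc1r, a defensin receptor in dogs, in both mTEClo libraries alone. Of 14 inducers of epithelial beta-defensins, such as Il17ra, Myd88 and Rela, 11 were called in both mTEChi libraries, 13 in both mTEClo libraries and 10 in all 4. Of 16 other epithelial antimicrobial genes, 5 were called in both mTEChi libraries, 6 in both mTEClo libraries and 3 (Bpi, Slpi and Pglyrp1) in all 4. In that list Reg3b was called in the mTEChi libraries alone, and Camp and Lyz1 in the mTEClo libraries alone.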

How the data were processed

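Each of the 4 libraries has 1 peak list deposited by the authors, so replicates were not pooled. The build was mm10 and the tools were MACS2 2.2.7.1, SAMtools 1.9, Bowtie2 2.2.9 and Picard, per the submitters' processing notes; their settings, the control and the handling of reads mapping to several places were not stated. The score deposited by the authors was read as −log10 of either a p-value or a q-value from the peak caller (the lowest score is 2.00) and was used only to rank peaks within a list. Groups and replicate numbers come from the sample titles.

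The summit is the middle of each interval. Coordinates count from 1. Genes and promoters come from RefSeq tables of GRCm38.p6; gene strand was known for the 29 members with a promoter entry. A promoter table entry was matched by symbol. Promoters were aligned globally with Biopython 1.88. The states were compared on library values with an exact permutation test (two-sided, Benjamini-Hochberg adjusted). Its p-value is the share of assignments of the libraries to the states that give a difference in means at least as large. Variation between these libraries may have technical reasons. The calling steps were tested on simulated data. Named members are those called in at least 3 libraries, called in both libraries of 1 state and neither of the other, or holding a peak in the top 5% of a list, and always Defb1, Defb3, Defb4 and Defb14; for other lists the genes named are examples, and the members picked out by promoter summits were chosen after their values were seen. The members and lists were chosen with earlier results of these data known. Scripts ran in Python 3.11.15 with scipy 1.17.1 and pandas 2.3.3 on numpy 2.4.6; plots used matplotlib 3.10.9.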

Additional observations from a re-analysis of the deposited data

How the results depend on the processing

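The difference in called members between mTEChi and mTEClo was 0 and ran from -2 to 2 when each library was left out, and it was 3.5 with a 25 kb window and -2.5 above the median score, the extremes of the other settings. The difference of 1 in distinct peaks turned to -1.5 with the gene interval only, -1 with a 1 kb window and -0.5 above the median score, and ran from -3.5 (without mTEChi replicate 2; -2.5 without mTEClo replicate 2) to 5.5 (without mTEChi replicate 1; 4.5 without mTEClo replicate 1). The difference of 0.00119 percentage points in list share turned to -0.00205, -0.00161 and -0.00207 in the same settings and ran from -0.00249 (without mTEChi replicate 2) to 0.00486 (without mTEChi replicate 1). No exact permutation p was below 0.333, the smallest possible with 2 libraries against 2; the replicate number as a block gave differences of 1 peak and 0.00119 percentage points, each with p = 1. The labels do not say whether same-numbered libraries share mice or preparation. Deviations in peak number between same-numbered libraries gave r = -0.0149 over 21631 genes, which are not replicates. That value cannot settle the question, because most regions came from 1 library. Members called in both mTEChi libraries, both mTEClo libraries and all 4 (5, 8 and 1) moved to 33, 27 and 22 with a 25 kb window, where all genes gave 80.3%, 80.2% and 74.2%, and to 2, 5 and 0 above the median score (all genes 46.1%, 45.2% and 34.0%) and 1, 0 and 0 with the 10000 highest peaks (20.6%, 17.8% and 11.3%). The gene interval only gave 1 and 2 for the states (41.6% and 43.9%) and the 1 kb window 3 and 4 (53.2% and 54.8%), while any base of the interval gave 3 for all 4 (52.2%). Over libraries left out these counts ran from 5 to 16, 8 to 18 and 1 to 4 (4 without mTEChi replicate 1, 3 without mTEClo replicate 1, 2 without mTEChi replicate 2). The matching shares of all genes ran from 61.2% to 73.0%, 63.1% to 75.5% and 53.9% to 57.6%. Regions in at least 2 and at least 3 libraries (8 and 3 of 73) became 5 and 0 of 32 above the median score, where all regions gave 15.0% and 5.61%. With the 10000 highest peaks they became 0 and 0 of only 5 regions (all regions 22.8% and 10.0%). With summits within 75 bp, 1 of 77 regions was left in at least 3 libraries (all regions 2.35%). Over libraries left out, the counts of shared regions ran from 5 to 6 and from 0 (without mTEChi replicate 2) to 1, among 52 to 61 regions. All regions gave 11.1% to 13.5% and 3.01% to 3.92% there. Except where fewer peaks, libraries or bases make counts smaller by construction, the cause was not tested. Depth is unknown, so a missing peak does not show that a site was unbound.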

Other observations

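Some beta-defensin relatives carry another symbol or are pseudogenes and were therefore not members. Gm15056 and Gm6040, which carry older beta-defensin names, had 0 and 0 peaks in mTEChi replicates 1 and 2 and 0 and 1 in mTEClo replicates 1 and 2. The mTEClo replicate 2 peak (chromosome 8, 20901772, score 4.93) is the one that called Defb33 in that library. The pseudogene Gm21944 beside them had 0 and 0 peaks in mTEChi and 1 and 1 in mTEClo, at 20887686 and 20881069. The peak at 20887686, in mTEClo replicate 1, lay inside Gm21944 and is the one that called Defb33 in that library. The mTEClo replicate 2 peak at 20901772 lay inside Gm15056, so both calls of Defb33 came from peaks inside other genes. Defb44-ps on chromosome 1 and Defa-ps12 on chromosome 8 had no peak in any library. Defa-ps13, a pseudogene that also carries an older beta-defensin name, had 0 and 1 peaks in mTEChi and 0 and 0 in mTEClo, and its peak (19299087, score 3.83) is the one that called Defb3 in mTEChi replicate 2. Spag11b, beyond Spag11a on the lower side of Defb14, had 3 and 1 peaks in mTEChi and 0 and 2 in mTEClo, while Spag11a had 0 and 1 in mTEChi and 3 and 1 in mTEClo.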
